A study of Mus musculus with 36 samples.

Results

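The jejunum, the long middle stretch of the mouse small intestine, was compared with the 2 segments on either side of it, the duodenum before it and the ileum after it. The jejunum was represented by 3 of the 12 samples of the series (9 of 36 arrays), chosen by the titles of the arrays, and its neighbours by 6 samples (18 arrays). Jejunum, duodenum and ileum, and a colon group of 3 samples that lies outside the comparison, all came from male mice of the outbred stock Hsd:ICR(CD-1), 8 weeks of age and fed standard chow, without any treatment or mutation, and each sample was a pool of total RNA from 10 mice. Whole pieces of gut were used, so a difference can lie in the RNA per cell or in the number of cells of a type, and these cannot be told apart. The labels do not say whether pools of different segments with the same number came from the same mice, so pools were not paired. Each p-value rests on how pools varied within a segment, taken over all 4 segments, colon included. One array, duodenum 3 on array set C, is called duodenum in its title and jejunum in its source name, and was counted as duodenum.

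Digested food meets the small intestine in order. The duodenum receives pancreatic juice and bile and takes up iron and calcium, the jejunum absorbs most sugars, amino acids and fat, and the ileum recovers bile acids and vitamin B12. The absorbing cell is the enterocyte, whose brush border carries hydrolases and carriers and whose basolateral side passes the products on to the blood. A gene can follow this axis as a slope, or it can be highest or lowest in the middle, and only a comparison with both neighbours tells these apart.

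Each array gave intensity values on a linear scale, which the authors had scaled to a common mean. Values below are these intensities, and differences are on the scale of log2 of the intensity plus 16, which understates the change of dim genes. Every array set (A, B and C, 3 chips with different probe sets) was fitted with limma. The question put to each of 36701 probe sets was whether the jejunum mean differed from the midpoint of the duodenum and ileum means. Calls were 2-sided, at p below 0.05 after Benjamini-Hochberg adjustment over all probe sets. Because the midpoint can be passed by a jejunum that equals 1 neighbour, a peak or trough was counted only where jejunum minus duodenum and jejunum minus ileum were both called in the same direction. A gene is represented by its brightest probe set on array set A, else on B, else on C.

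Markers set down for each segment were set beside the labels. The duodenal factor Pdx1 measured 4.5 to 15 units in the jejunum pools, against 94.3 to 100.2 in the duodenum, and the ileum had 2.4 to 11.7. The ileal bile acid binding protein Fabp6 was at 40 to 60 in the jejunum, 11.6 to 56.5 in the duodenum, and the ileum had 9402.8 to 12968.3. The colonic carbonic anhydrase Car1 stayed at 12.4 to 79.6 in all 9 small-intestinal pools, with a colon mean of 14650.3. Of the 3 genes set down for the jejunum, lactase (Lct) and the lactate carrier Slc5a12 were brightest there, while the transcription factor Gata4 measured 166.7 to 280.9 units in the jejunum, 214.3 to 252.6 in the duodenum, and the ileum had 101.4 to 207.3 (difference 0.14, adjusted p = 0.917). Thus 2 of the 3 jejunal genes and the genes of both neighbours followed the labels. The markers had been set down with earlier results of these data known, so they are no independent check of the labels.

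The 3 jejunum pools were not alike in one control. The 18S ribosomal RNA control was low in jejunum 2 and 3 and in ileum 1 and 3 (80.1 to 684.5 units on array set A) and high in the other 8 samples (2711.6 to 10415.9 on A), with the same division on B and C. For actin, the 3' signal over the 5' signal, which grows as RNA degrades, was 1.28 to 1.55 in the jejunum on array set A, against 1.41 to 1.84 in the duodenum, with a lower 1.14 to 1.20 in the ileum. The median intensity of an array on A was 48.6 to 66.5 for jejunum pools, 58.4 to 70.4 for duodenum pools and 65.4 to 75.3 for ileum pools. Correlations of log2 intensities between jejunum pools were 0.948 to 0.965 on A, against 0.919 to 0.947 between jejunum and duodenum pools and 0.916 to 0.942 between jejunum and ileum pools, as a description across probe sets that are not independent. The part of the 18S class, the actin ratio and the median intensity in the results was not tested beyond the fits given at the end.

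In all, 724 probe sets (1.97% of those tested) differed between the jejunum and the midpoint of its neighbours. Of these, 306 (0.834%) were higher and 418 (1.14%) lower in the jejunum. The calls came mainly from array set A (214 higher, 268 lower), with 78 and 128 on B and 14 and 22 on C. The direction of the majority depended on the scaling. With arrays centred on their medians, which moved the median difference of all probe sets to 0.08 from -0.07, 393 were higher and 149 lower. Against the duodenum alone, 339 probe sets (0.924%) were called, 126 higher (0.343%) and 213 lower (0.58%). Against the ileum alone there were 1020 (2.78%), 429 higher (1.17%) and 591 lower (1.61%). Both comparisons use the same 3 jejunum pools.

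Peaks and troughs by the rule on both sides were fewer. In 55 probe sets (0.15% of those tested, 46 genes) the jejunum was called above both neighbours, and in 56 (0.153%, 35 genes) below both, which makes 111 (0.302%) in all. Counted over 15964 genes, 515 were called (3.23%), 244 higher (1.53%) and 271 lower (1.7%), and 81 were peaks or troughs (0.507%), with 0.288% peaks and 0.219% troughs. On the 55 peaks every jejunum array lay above every duodenum and ileum array, and on 55 of the 56 troughs every jejunum array lay below them, where 1.91% and 3.06% of all probe sets had such separation upwards and downwards. The same arrays had served to choose the peaks and troughs, so this separation is largely built in and is no separate support. The rule on both sides can miss many shifts. On simulated data, where the other segments were alike, it recovered 58% of shifts of 2 and 10.3% of shifts of 1 (log2). Recovery in the real data, where the neighbours also differ from each other, can be different. A gene that failed the rule is therefore not shown to lack a peak or trough. The contrast together with separation of all arrays held for 496 probe sets. At least 2-fold differences from each neighbour were found in 35 peaks and 45 troughs. Another 236 higher and 323 lower calls had a jejunum mean beyond both neighbours with at most 1 side called, and 15 and 39 had a jejunum mean between them. Among the higher calls that were no peaks, 186 differed from the ileum only and 33 from the duodenum only. Among the lower calls that were no troughs, these numbers were 239 and 86.

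The peaks and troughs were also set beside the large intestine. The jejunum mean lay above the colon mean in 54 of the 55 peaks (51 called) and below it in 55 of the 56 troughs (49 called). Of all probe sets, 9.19% were called between jejunum and colon, 3.38% higher and 5.81% lower. The same 3 jejunum pools had served to choose the peaks and troughs, so this one-sidedness is partly built in and is no separate support.

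**Figure D1:**
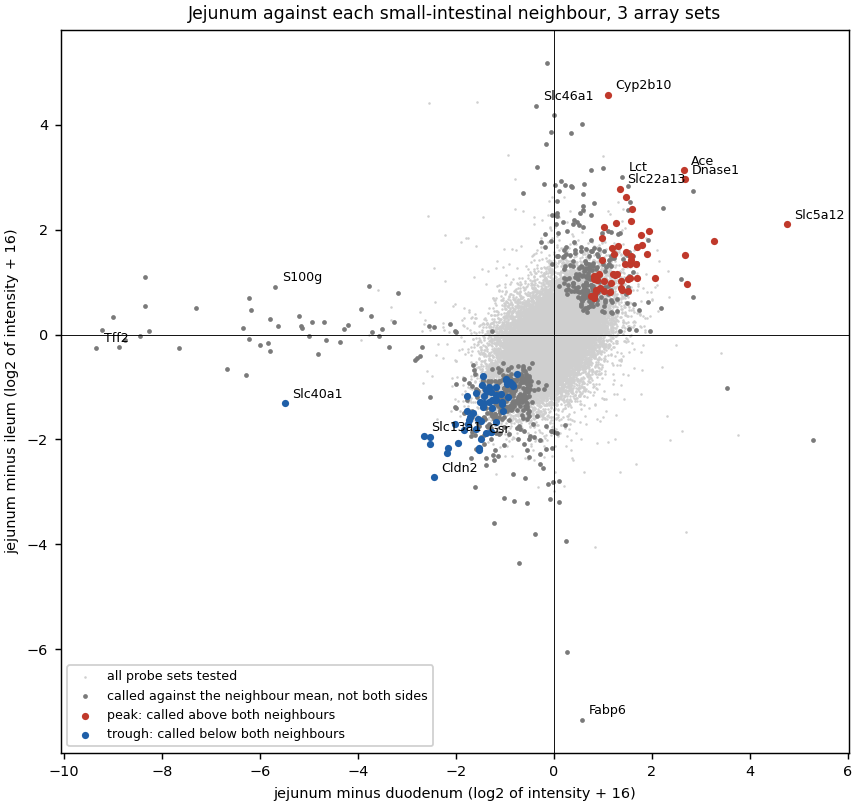
Jejunum minus duodenum (horizontal) against jejunum minus ileum (vertical) for all 36701 probe sets, as log2 of intensity plus 16, with the same jejunum pools on both axes. The 55 peaks lie in the upper right and the 56 troughs in the lower left, while Tff2, S100g and Fabp6 lie along an axis, far from 1 neighbour and level with the other.

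Amino acid carriers held 5 peaks. Of 16 measured genes for amino acid and peptide carriers, 5 were called higher, all 5 of them peaks, and none lower, where 1.53% of all 15964 genes were called higher and 0.288% were peaks. The list median was 0.08, against -0.07 over all genes, and the other 11 did not pass the test. The 5 were Slc3a2, Slc7a7, Slc7a8, Slc43a2 and Slc36a1. Slc3a2 encodes the heavy chain that pairs with light chains such as Slc7a7 (exchange of cationic for neutral amino acids) and Slc7a8 (neutral amino acids) on the basolateral side of the enterocyte. Slc43a2 is a carrier of large neutral amino acids, and Slc36a1 carries small amino acids together with protons.

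Slc3a2 measured 4642.3, 6604.2 and 7290.1 units in jejunum 1, 2 and 3. It measured 2153.5, 1854.1 and 2215.2 in the duodenum and 2039.4, 2699.6 and 2449.8 in the ileum. All jejunum pools were therefore above all 6 neighbouring pools, and the difference from the midpoint was 1.45 (SE 0.16, adjusted p = 0.000245). Slc7a8 measured 566.3, 1021.1 and 1083.2 in the jejunum, 233.1, 185.6 and 240.0 in the duodenum and 272.7, 360.6 and 237.5 in the ileum. Jejunum 1 was the lowest of its group and still above every neighbour, with a difference of 1.71 (adjusted p = 0.0014), 1.90 from the duodenum and 1.53 from the ileum. Its level in the colon was 3.4 to 16.2 units.

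Slc36a1 measured 2536.2, 4429.6 and 4657.1 in the jejunum, 1174.4, 1435.4 and 1153.5 in the duodenum and 1360.2, 1425.6 and 1156.6 in the ileum. The neighbours were almost level with each other, and the jejunum stood 1.54 above their midpoint (SE 0.19, adjusted p = 0.000428). Slc7a7 measured 2460.7, 4402.4 and 4167.2 in the jejunum, 1226.8, 1423.1 and 1108.5 in the duodenum and 1873.2, 2259.5 and 1863.3 in the ileum. The step from the ileum (0.83, adjusted p = 0.0362) was smaller than that from the duodenum (1.5, adjusted p = 0.000806). Slc43a2, which stood outside the rule for named genes, measured 5983.8, 12890.0 and 10438.7 in the jejunum, 3603.7, 3526.0 and 3644.6 in the duodenum and 4104.0, 4492.7 and 5274.1 in the ileum (1.19, adjusted p = 0.00594, with 0.08 to 1.21 over its 4 probe sets). In all 5 genes jejunum 1, the pool with high 18S signal, was the lowest jejunum pool.

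The other measured amino acid carriers were not called, which does not show that they lack a peak. The apical carriers Slc6a19 (0.58, adjusted p = 0.414) and Slc7a9 (0.33, adjusted p = 0.363) were not called. Neither was the light chain Slc7a5 (0.00, adjusted p = 0.997). The partner of Slc7a9, Slc3a1, was not called either (-0.01, adjusted p = 0.993). The glutamate carrier Slc1a1 measured 36.6 to 50.5 units in the jejunum, 14.7 to 40.8 in the duodenum, and the ileum had 242.2 to 376.8, and its contrast was not called (-1, adjusted p = 0.0772). These were named after their values were seen.

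The bases upstream of the start site are shown for all 5 carriers, which were high together. They are the 250 bases before the annotated start in RefSeq (GRCm38.p6), 5′ to 3′ on the gene's strand, for the first listed start where a gene has several. Capitals mark a core of the binding sequence of HNF1, a transcription factor of gut epithelium, spelled GTTAAT and searched on both strands together with the GATA motif AGATAA, CAAAGTCCA of HNF4 and the sterol element TCACCCCAC, which do not overlap the capitals shown.
Slc36a1 (chr11:55204090-55204339, plus strand): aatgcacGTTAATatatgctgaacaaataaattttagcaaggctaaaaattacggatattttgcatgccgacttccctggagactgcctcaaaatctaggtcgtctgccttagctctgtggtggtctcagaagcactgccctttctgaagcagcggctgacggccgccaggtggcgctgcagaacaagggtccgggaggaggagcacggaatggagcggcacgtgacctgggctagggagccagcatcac
Slc7a7 (chr14:54409473-54409722, minus strand): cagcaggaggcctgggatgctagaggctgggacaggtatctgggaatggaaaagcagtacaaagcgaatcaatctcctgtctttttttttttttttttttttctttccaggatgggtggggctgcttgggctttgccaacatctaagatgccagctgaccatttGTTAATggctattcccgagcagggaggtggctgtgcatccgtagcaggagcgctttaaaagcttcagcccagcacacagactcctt
Slc3a2 (chr19:8713898-8714147, minus strand): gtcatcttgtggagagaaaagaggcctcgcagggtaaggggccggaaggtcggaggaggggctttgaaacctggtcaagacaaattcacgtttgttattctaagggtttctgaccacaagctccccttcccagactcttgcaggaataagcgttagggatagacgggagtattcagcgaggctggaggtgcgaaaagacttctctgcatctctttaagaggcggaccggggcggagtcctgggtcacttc
Slc7a8 (chr14:54781887-54782136, minus strand): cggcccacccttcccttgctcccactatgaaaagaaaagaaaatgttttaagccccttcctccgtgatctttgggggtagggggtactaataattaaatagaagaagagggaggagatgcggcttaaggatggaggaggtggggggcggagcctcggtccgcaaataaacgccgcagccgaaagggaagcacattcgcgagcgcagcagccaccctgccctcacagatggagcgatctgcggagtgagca
Slc43a2 (chr11:75531444-75531693, plus strand): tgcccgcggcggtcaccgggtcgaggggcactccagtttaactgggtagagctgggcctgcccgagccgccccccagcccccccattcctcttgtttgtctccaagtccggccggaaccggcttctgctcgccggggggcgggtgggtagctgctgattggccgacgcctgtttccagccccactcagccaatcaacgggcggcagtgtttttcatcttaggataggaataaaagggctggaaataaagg
The first sequence and the next hold the HNF1 core once each, starting 243 and 86 bases before the start, and the last 3 hold none of the 4 motifs. Over windows of 300 bases (250 before to 50 after the start), the HNF1 core was present for 9 of 38 peak genes with a window (23.7%), 3 of 24 trough genes (12.5%), 17 of 196 genes called higher (8.67%) and 2228 of 27025 genes in the table (8.24%). AGATAA was present for 4 of the 38 peak genes (10.5%) and 12.7% of all genes. CAAAGTCCA and TCACCCCAC were in none of the 53 windows of peak genes and in 0.475% and 0.551% of all windows. Such matches describe the letters in these windows, and the motifs were chosen with earlier results of these data known.

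Peptide-splitting enzymes held a further peak. Angiotensin-converting enzyme, Ace, a peptidase of the brush border as well as of blood vessels, measured 3166.5, 5446.5 and 5279.2 units in the jejunum. It measured 612.6, 755.2 and 742.0 in the duodenum and 519.9, 616.2 and 385.0 in the ileum. The lowest jejunum pool was far above every neighbour, and the difference was 2.90 (SE 0.28, adjusted p = 6.23e-05), although 1 of its 3 probe sets gave -0.42. Of 10 measured brush-border peptidases, 2 were called higher and none lower (median 0.20), against 1.53% and 1.7% of all genes. The other, aminopeptidase N (Anpep), was no peak, with 12023.2 to 13462.7 units in the jejunum, 3667.7 to 4414.0 in the duodenum, and the ileum had 10265.9 to 15153.7. The cytosolic aminoacylase Acy1, which frees amino acids from N-acyl forms, was a small peak (0.85, adjusted p = 0.0141), and was named after its values were seen.

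**Figure D2:**
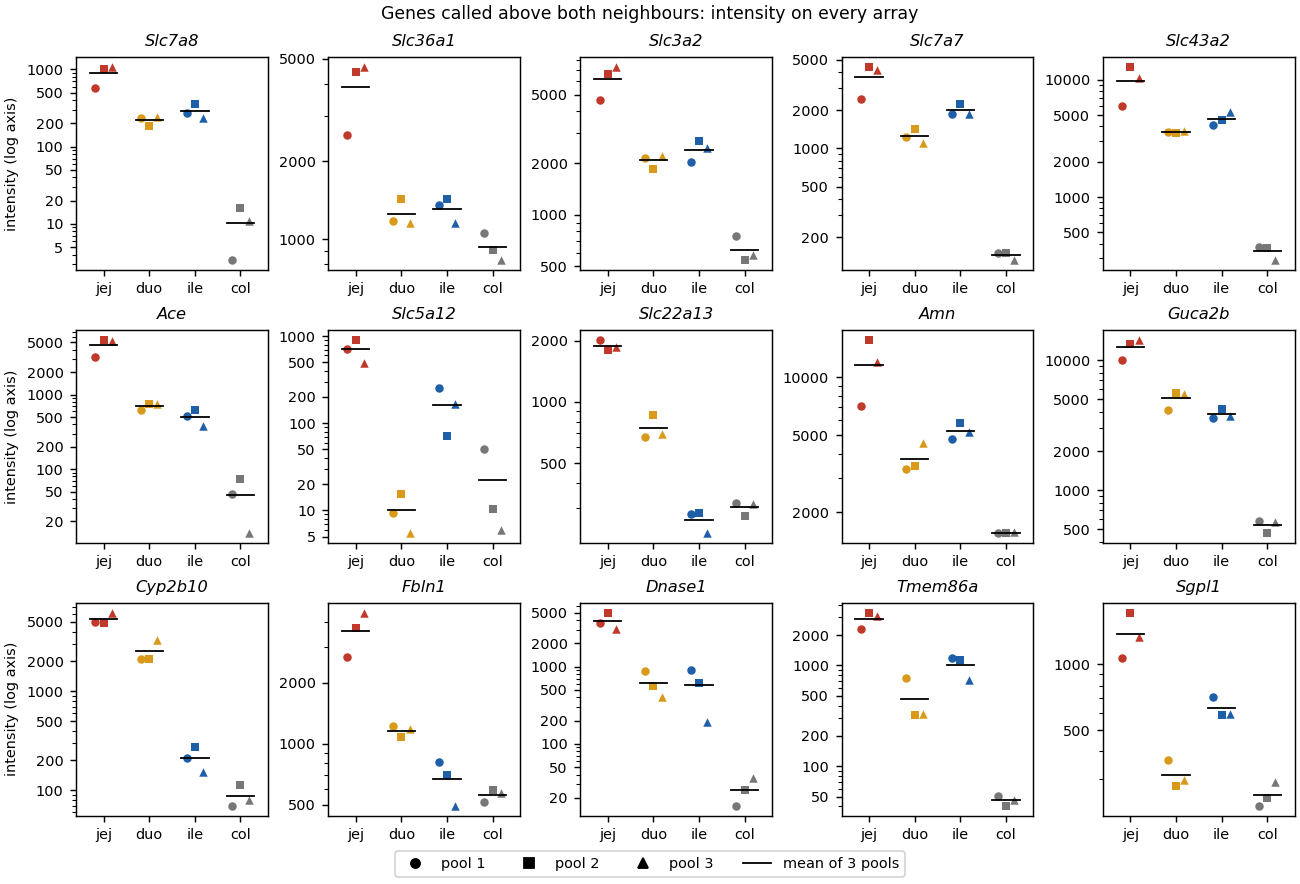
Intensity (log axis, arbitrary units) on every array for 15 genes called above both neighbours, with jejunum (jej), duodenum (duo), ileum (ile) and colon (col) from left to right; symbols are the 3 pools and bars their mean. All jejunum points lie above all duodenum and ileum points, and jejunum 1 (circles) is the lowest jejunum pool for the amino acid carriers.

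Carriers of organic acids, nucleosides and vitamins showed several shapes. Of 17 measured genes, 4 were called higher and 1 lower, against 1.53% and 1.7% of all genes. The list median of -0.12 turned to 0.11 with median centring. Slc5a12, a sodium-coupled carrier of lactate and other short acids, had the largest difference of the 46 peak genes. It measured 715.6, 909.9 and 490.4 units in the jejunum, 9.4, 15.6 and 5.5 in the duodenum and 252.0, 71.9 and 167.1 in the ileum. The duodenal values lay under the array medians, and the jejunum exceeded the midpoint by 3.43 (SE 0.44, adjusted p = 0.000548), with 1.11 and 1.36 on its other probe sets. Slc22a13, an organic anion carrier outside this list, measured 2021.4, 1794.7 and 1856.6 in the jejunum, 668.9, 856.6 and 697.9 in the duodenum and 279.3, 282.6 and 226.4 in the ileum (2.06, adjusted p = 7.42e-06). The jejunum was highest and the ileum lowest without overlap. Among the samples with high 18S signal, where jejunum 1 and ileum 2 alone stand for their segments, the difference of Slc22a13 was 2.10. These pools had also served to choose it.

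Other carriers of the list differed from 1 side. The dicarboxylate carrier Slc13a2 measured 5831.5, 13724.7 and 11224.8 in the jejunum, 1077.2, 1688.7 and 1332.3 in the duodenum and 4805.5, 7104.5 and 5928.4 in the ileum. Jejunum 1 lay within the ileal range, and only the step from the duodenum was called (2.83, adjusted p = 2.43e-05). The proton-coupled folate carrier Slc46a1 was the reverse, at 1405.6, 3259.7 and 2754.7 in the jejunum, 2705.1 to 3572.1 in the duodenum, and the ileum had 78.9 to 126.4. Its contrast was called (2.00, adjusted p = 0.00151) although the jejunum mean lay below that of the duodenum. The nucleoside carrier Slc28a1, outside the naming rule, was called higher than the ileum only (2.54, adjusted p = 0.00618).

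For vitamin B12, Amn was a peak and its partner was not. Amnionless, Amn, anchors the receptor cubilin (Cubn) in the membrane. It measured 7095.3, 15599.9 and 11993.6 in the jejunum, 3323.5, 3470.2 and 4550.8 in the duodenum and 4776.5, 5770.5 and 5168.2 in the ileum (1.31, adjusted p = 0.00319). Cubn measured 1102.7, 3702.8 and 2953.5 in the jejunum, 88.3 to 380.2 in the duodenum, and the ileum had 2493.8 to 3809.8. The duodenum thus lay below jejunum and ileum alike, and the contrast of Cubn was not called (1.53, adjusted p = 0.0564). Of 8 genes of this list 2 were called higher and none lower, against 1.53% and 1.7% of all genes. The other was transcobalamin, Tcn2, the blood carrier of the vitamin (0.72, adjusted p = 0.0163), whose difference was -0.01 on one of its 4 probe sets.

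Most sugar genes were high in the jejunum without peaking there. Of 9 measured genes for sugar carriers and fructose metabolism, 6 were called higher and none lower, with a median of 1.19. The shares over all genes were 1.53% higher and 1.7% lower. The list median was 0.31 against the duodenum and 1.65 against the ileum. Slc2a2, the basolateral glucose and fructose carrier, measured 1448.4, 2141.7 and 1203.9 in the jejunum, 1728.7 to 1772.4 in the duodenum, and the ileum had 89.5 to 161.3. The jejunum and duodenum overlapped (-0.17, adjusted p = 0.89), and the contrast of 1.74 (adjusted p = 0.000619) came with a low ileum. Fructose bisphosphatase, Fbp1, had the same shape (1.34, adjusted p = 0.000323). The glucose 6-phosphate carrier Slc37a4 measured 903.4, 2004.5 and 1946.2 in the jejunum, 718.9 to 796.8 in the duodenum, and the ileum had 357.1 to 401.6. It was above all neighbours, but its step from the duodenum was not called (0.97, adjusted p = 0.077). Pck1, the gatekeeper enzyme of glucose synthesis, was the single peak, at 1374.8, 1090.0 and 930.9 in the jejunum, 660.6, 627.3 and 472.3 in the duodenum and 548.4, 546.1 and 403.7 in the ileum (1.04, adjusted p = 0.00395).

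Of 4 measured disaccharidases and starch enzymes 2 were called higher, against 1.53% of all genes, and neither was a peak. Lactase, Lct, which splits milk sugar, measured 7376.8, 8756.7 and 8140.3 in the jejunum, 3024.1, 2958.8 and 3263.1 in the duodenum and 1306.2, 1213.4 and 607.9 in the ileum. The groups did not overlap, and the contrast was 2.20 (adjusted p = 0.00113), but the step from the duodenum missed the threshold (1.39, adjusted p = 0.0793). Trehalase, Treh, overlapped with the duodenum (contrast 1.64, adjusted p = 0.00258).

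Of 18 genes of fat uptake and re-esterification, 5 were called higher and none lower (median 0.50), against 1.53% and 1.7% of all genes. There was 1 peak, where 0.288% of all genes were peaks. That peak was Slc27a4, a fatty acid carrier and acyl-CoA synthetase, at 1327.5, 1966.4 and 2587.7 in the jejunum, 796.7, 680.4 and 839.4 in the duodenum and 821.6, 1063.0 and 678.5 in the ileum (1.22, adjusted p = 0.00513). Rbp2, the retinol binding protein of enterocytes, was above all neighbours at 5500.4, 5453.4 and 6019.5 in the jejunum, 3246.0 to 4389.0 in the duodenum, and the ileum had 546.7 to 901.3. Only its step from the ileum was called (2.86, adjusted p = 1.47e-06). Fabp1, the liver-type fatty acid binding protein, overlapped with the duodenum (contrast 2.51, adjusted p = 0.0152), and its other probe set gave -0.02.

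Of 13 apolipoprotein and chylomicron genes, 3 were called higher and none lower, against 1.53% and 1.7% of all genes. Apoc2, the activator of lipoprotein lipase, measured 15175.2, 12391.4 and 12636.9 in the jejunum, 8723.8, 10872.5 and 12107.8 in the duodenum, with 487.5 to 1367.2 in the ileum. The jejunum lay just above the duodenum (0.35, adjusted p = 0.75) and far above the ileum (3.85, adjusted p = 2.97e-06). Outside these lists, 2 lipid genes were peaks and were named after their values were seen. Srebf1, a transcription factor of fatty acid synthesis, measured 1245.4, 1957.3 and 1624.8 in the jejunum, 738.7 to 835.7 in the duodenum, and the ileum had 522.7 to 654.0 (1.21, adjusted p = 0.000428). Cideb, a lipid droplet protein, measured 3842.3, 5681.2 and 5518.4 in the jejunum, 2586.1 to 2918.0 in the duodenum, and the ileum had 2043.4 to 2629.2 (0.94, adjusted p = 0.00376).

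**Figure D3:**
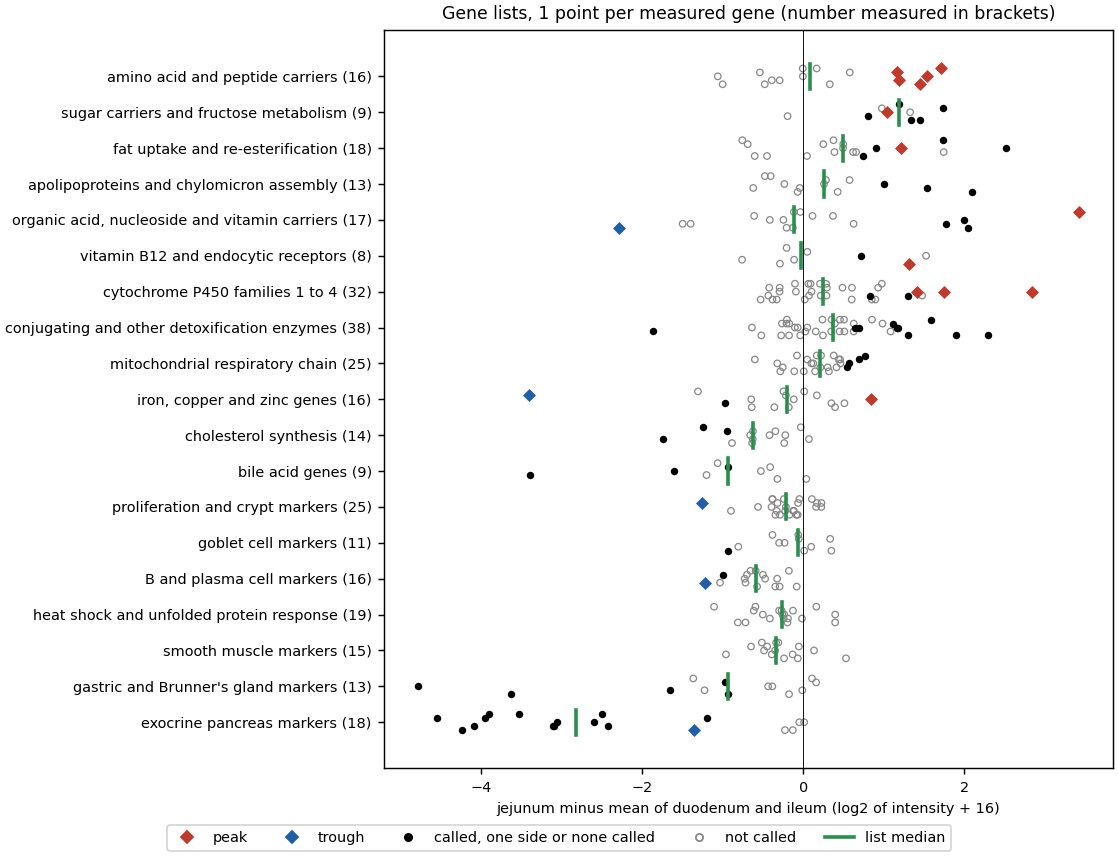
Jejunum minus the mean of duodenum and ileum (log2 of intensity plus 16) for every measured gene of 19 lists, with the number measured in brackets. Filled black points and diamonds were called, red diamonds are peaks, blue diamonds troughs and green bars list medians, which run from -2.82 for exocrine pancreas markers to 1.19 for sugar genes.

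Of 32 measured cytochrome P450 genes of families 1 to 4, 5 were called higher and none lower (median 0.25), and 3 were peaks. The shares over all genes were 1.53% higher, 1.7% lower and 0.288% peaks. Cyp2b10, which is induced by foreign compounds in mouse liver, measured 5031.4, 4853.5 and 6211.1 in the jejunum, 2137.5, 2111.1 and 3299.5 in the duodenum and 212.4, 271.5 and 154.5 in the ileum. It was the peak most unequal on its 2 sides, with 1.11 (adjusted p = 0.0322) from the duodenum and 4.58 (adjusted p = 8.11e-08) from the ileum. Cyp2d26 (1.41, adjusted p = 0.000245) and Cyp4f13 (1.75, adjusted p = 0.00703) were the other peaks. Cyp4v3 was called against the ileum only and Cyp4b1 against neither neighbour. Probe sets of such families can bind transcripts of relatives.

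Of 38 conjugating and other detoxification enzymes, 9 were called higher and 1 lower (median 0.37), against 1.53% and 1.7% of all genes. None was a peak. Alcohol dehydrogenase 1, Adh1, measured 4980.9, 8591.8 and 10103.6 in the jejunum, 4413.2 to 6430.9 in the duodenum, and the ileum had 402.9 to 483.0. The contrast was 2.30 (adjusted p = 5.55e-05), and the step from the duodenum was not called (0.58, adjusted p = 0.396). The glutathione transferases Gstm6 and Gstt1 had jejunum means within 5% of the duodenal mean and were called beside a low ileum. The one fall was the sulfotransferase Sult1c2, at 5.9, 7.2 and 29.7 in the jejunum, 112.6 to 178.1 in the duodenum, and the ileum had 40 to 55.8 (-1.86, adjusted p = 0.0107), values that partly lie under the array medians.

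Other peaks did not belong to 1 pathway. Guca2b encodes uroguanylin, the gut peptide that stimulates salt and water secretion through guanylate cyclase C. It measured 10075.8, 13362.2 and 14346.5 in the jejunum, 4145.2, 5619.3 and 5526.3 in the duodenum and 3582.6, 4180.0 and 3740.8 in the ileum. All jejunum pools were above all neighbours (1.5, SE 0.15, adjusted p = 8.78e-05), while its receptor Gucy2c was not called (0.22, adjusted p = 0.63). Dnase1, a secreted nuclease that digests DNA, measured 3675.9, 4985.3 and 3100.7 in the jejunum, 878.5, 568.3 and 409.0 in the duodenum and 904.9, 619.0 and 189.2 in the ileum (2.82, adjusted p = 0.000834), and 0.01 on its other probe set.

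Among matrix genes, Fbln1, an extracellular matrix glycoprotein, measured 2685.4, 3702.9 and 4429.9 in the jejunum, 1225.8, 1077.8 and 1175.6 in the duodenum and 810.3, 700.9 and 492.4 in the ileum. Its difference was 2.00 (SE 0.17, adjusted p = 2.39e-05), with 1.70, 1.87 and -0.06 on its other probe sets. Fbln1 was the single called rise among 19 fibroblast and matrix markers, against 1.53% of all genes. The list median was -0.22, or -0.0019 with median centring. Values below 0 were found in 16 of the 19, against 9190 of all 15964 genes. Sparc, a matrix protein of the same list, was called lower (-0.70, adjusted p = 0.0457, but 1.22 on its other probe set).

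Sgpl1, the lyase that degrades sphingosine 1-phosphate, measured 1069.3, 1725.9 and 1331.9 in the jejunum, 365.9, 277.6 and 294.8 in the duodenum and 708.6, 587.5 and 594.4 in the ileum (1.57, adjusted p = 0.000116). Faah, which degrades fatty acid amides such as anandamide, was 1.29 higher (adjusted p = 0.002). Ltc4s, the leukotriene C4 synthase, was 1.41 higher (adjusted p = 0.000903), though another probe set gave -0.01. Tmem86b, a lysoplasmalogenase that cleaves ether lysolipids, was 1.38 higher (adjusted p = 0.00119), though its other probe set gave -0.33. Its relative Tmem86a was 2.10 higher (adjusted p = 0.000407). Sgpl1 and Faah were named after their values were seen.

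Further peaks by the naming rule were the matrix protein Vwa1 (1.84, adjusted p = 0.00205), the semaphorin Sema7a (1.52, adjusted p = 0.00897), the histone demethylase Kdm6b (1.49, adjusted p = 0.00822), the histone gene H3c14 (1.51, adjusted p = 0.011), Frat2 of the Wnt pathway (1.40, adjusted p = 0.00513) and the bile acid and sterol hydroxylase Cyp27a1 (1.18, adjusted p = 0.00176, with -0.05 on its other probe set). The zinc carrier Slc39a5 was a smaller peak (0.84, adjusted p = 0.0109). Kdm6b, Frat2 and H3c14 were uneven within the jejunum. Kdm6b measured 1199.8, 3401.0 and 3363.5 there, 795.1 to 806.6 in the duodenum, and the ileum had 759.6 to 980.8, so that jejunum 1 was much closer to the neighbours than jejunum 2 and 3. Susd2 was a peak whose step from the ileum (0.97, adjusted p = 0.0453) was much smaller than that from the duodenum (2.73, adjusted p = 9.42e-06). Leap2, an antimicrobial peptide that opposes ghrelin, was called higher (2.09, adjusted p = 0.00104) but was no peak. Nor was Snx20 (2.32, adjusted p = 0.0316), whose jejunum pools measured 61.9, 598.5 and 276.1.

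Iron and sulfate carriers had some of the largest falls. Ferroportin, Slc40a1, exports iron into the blood, and it measured 207.6, 193.1 and 104.0 in the jejunum, 7406.6, 7693.2 and 8951.6 in the duodenum and 430.6, 275.9 and 636.3 in the ileum. Most of its difference of -3.40 (SE 0.27, adjusted p = 7.06e-06) lay on the duodenal side (-5.49), with -1.31 from the ileum (adjusted p = 0.0358). It was called lower among 16 iron, copper and zinc genes together with the ferric reductase Cybrd1 (-0.97, adjusted p = 0.0437), which was low in jejunum and ileum alike. Slc39a5 was the single rise. The shares over all genes were 1.53% higher and 1.7% lower.

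Slc13a1, a sodium-coupled sulfate carrier, was low in the middle from both sides. It measured 709.7, 2015.2 and 843.6 in the jejunum, 7012.4, 6079.4 and 7259.0 in the duodenum and 4744.2, 2637.4 and 5590.9 in the ileum. No jejunum pool reached the lowest ileum pool, and the difference was -2.29 (SE 0.31, adjusted p = 0.000889). It and the dicarboxylate carrier Slc13a2, members of 1 family, thus had opposite signs.

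Cldn2, a claudin that makes tight junctions leaky to cations and water, had the largest fall on its smaller side among the 35 trough genes. It measured 31.0, 14.9 and 18.2 in the jejunum, 174.0, 177.7 and 199.7 in the duodenum and 252.1, 179.7 and 253.5 in the ileum. The jejunum values lay under the array medians, so only its upper level is known there, and the difference was -2.58 (SE 0.41, adjusted p = 0.00436). Among 16 claudins and junction proteins it was the single fall, and Cldn4, a sealing claudin, the single rise (0.82, adjusted p = 0.025). Of all genes, 1.7% were called lower and 1.53% higher.

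Plet1, a surface protein of epithelial progenitors, measured 23.1, 26.5 and 32.7 in the jejunum, 288.9, 157.6 and 282.8 in the duodenum and 258.5, 140.2 and 93.2 in the ileum (-2.24, SE 0.25, adjusted p = 0.000246). Prom1, the surface protein CD133, measured 121.6, 112.9 and 103.6 in the jejunum, 248.5, 207.5 and 300.5 in the duodenum and 372.0, 289.5 and 361.2 in the ileum (-1.26, adjusted p = 0.00036). Cd24a, a surface antigen that is high in crypt cells, measured 666.0, 578.8 and 373.7 in the jejunum, 1317.9, 1377.0 and 1353.6 in the duodenum and 1247.9, 1012.5 and 1117.7 in the ileum (-1.20, adjusted p = 0.000911). All 3 were brightest in the colon, with means of 3347 units for Plet1, 1864 for Prom1 and 3552 for Cd24a. Of 25 proliferation and crypt markers, Prom1 alone was called, where 3.23% of all genes were. The list median of -0.22 became 0.01 with median centring. The spindle checkpoint kinase Bub1b, a trough by the naming rule, measured 84.8, 34.4 and 34.2 in the jejunum, 300.2, 121.6 and 253.2 in the duodenum and 213.9, 189.6 and 219.5 in the ileum (-1.83, adjusted p = 0.0103). The jejunum values of Plet1 and Bub1b lay under the array medians, so only their upper level is known there. Cd24a was named after its values were seen.

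Tissue kallikreins, a family of near copies, were troughs. Klk1, a protease that releases kinins, measured 464.1, 554.1 and 587.4 in the jejunum, 2077.6, 1300.2 and 1613.9 in the duodenum and 1377.0, 800.8 and 1465.1 in the ileum (-1.35, adjusted p = 0.00151). Klk1b1 (-1.30, adjusted p = 0.00776), Klk1b5 (-1.22, adjusted p = 0.000187) and Klk1b22 (-0.92, adjusted p = 0.00719) were troughs too. Their probe sets can bind each other's transcripts, so they are not independent. All 4 were brightest in the colon, at 2111 for Klk1b22, 2460 for Klk1b5, 7317 for Klk1 and 7556 for Klk1b1 on average. Klk1, Klk1b5 and Klk1b22 were named after their values were seen.

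Serp1, a stress protein of the endoplasmic reticulum, measured 540.8, 252.0 and 273.8 in the jejunum, 987.4, 836.1 and 678.9 in the duodenum and 1239.7, 740.8 and 826.8 in the ileum (-1.33, adjusted p = 0.00698). Tram1, which helps new proteins through the translocon, measured 383.4, 310.7 and 246.3 in the jejunum, 772.9, 583.8 and 652.6 in the duodenum and 1116.7, 732.6 and 612.3 in the ileum (-1.19, adjusted p = 0.00425). Fkbp11, a folding enzyme of secretory cells, was at 35.3 to 48.3 in the jejunum, 102.8 to 140.9 in the duodenum, and the ileum had 90.5 to 103.1 (-1.16, adjusted p = 0.0113), and the Golgi protein Golm1 differed by -1.07 (adjusted p = 0.00114). The list of 19 heat shock and unfolded protein response genes had no call in either direction, where 3.23% of all genes were called. Its median was -0.26, or -0.04 with median centring. The jejunum values of Fkbp11 lay under the array medians. Tram1, Fkbp11 and Golm1 were named after their values were seen.

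The antibody chain Jchain, made by plasma cells, was a trough as well. It measured 1057.1, 542.1 and 837.6 in the jejunum, 2366.1, 2560.8 and 1721.9 in the duodenum and 1613.5, 1328.8 and 1737.7 in the ileum (-1.22, adjusted p = 0.00356). Mzb1, a folding factor of plasma cells, was called lower with it (-1, adjusted p = 0.0321), though its other probe set gave 0.46. Of 16 B and plasma cell markers 2 were called lower and none higher, against 1.7% and 1.53% of all genes. The list median was -0.58, or -0.36 with median centring. All 16 values were below 0, against 9190 of all 15964 genes. The summed level of the list was 28150.6 to 45930.4 units in the jejunum, 36749.8 to 55284.7 in the duodenum, and the ileum had 35398.4 to 51871, so the groups overlapped. Igha (-0.18, adjusted p = 0.862), the heavy chain of the main gut antibody, was bright in all pools and not called. The part of plasma cells in the falls of Serp1, Tram1 and Fkbp11 was not tested.

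Gsr, glutathione reductase, measured 395.3, 521.7 and 360.6 in the jejunum, 1160.9, 1138.2 and 1317.5 in the duodenum and 1635.6, 2228.3 and 1375.5 in the ileum. Its difference was -1.73 (SE 0.17, adjusted p = 8.78e-05). Oxct1, which lets cells burn ketone bodies, measured 110.4, 130.8 and 83.3 in the jejunum, 339.7, 382.7 and 334.3 in the duodenum and 359.8, 362.2 and 536.1 in the ileum (-1.69, adjusted p = 8.78e-05), although its other probe set gave 0.47. Acss1, which activates acetate in mitochondria, measured 129.1, 232.0 and 136.9 in the jejunum, 599.6, 523.3 and 648.0 in the duodenum and 370.0, 319.0 and 462.4 in the ileum (-1.47, adjusted p = 0.000548). Gsr and Oxct1 kept a difference below 0 among the 8 samples with high 18S signal, as did all 35 trough genes. There jejunum 1 alone stands for the jejunum, and it had also served to choose them.

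**Figure D4:**
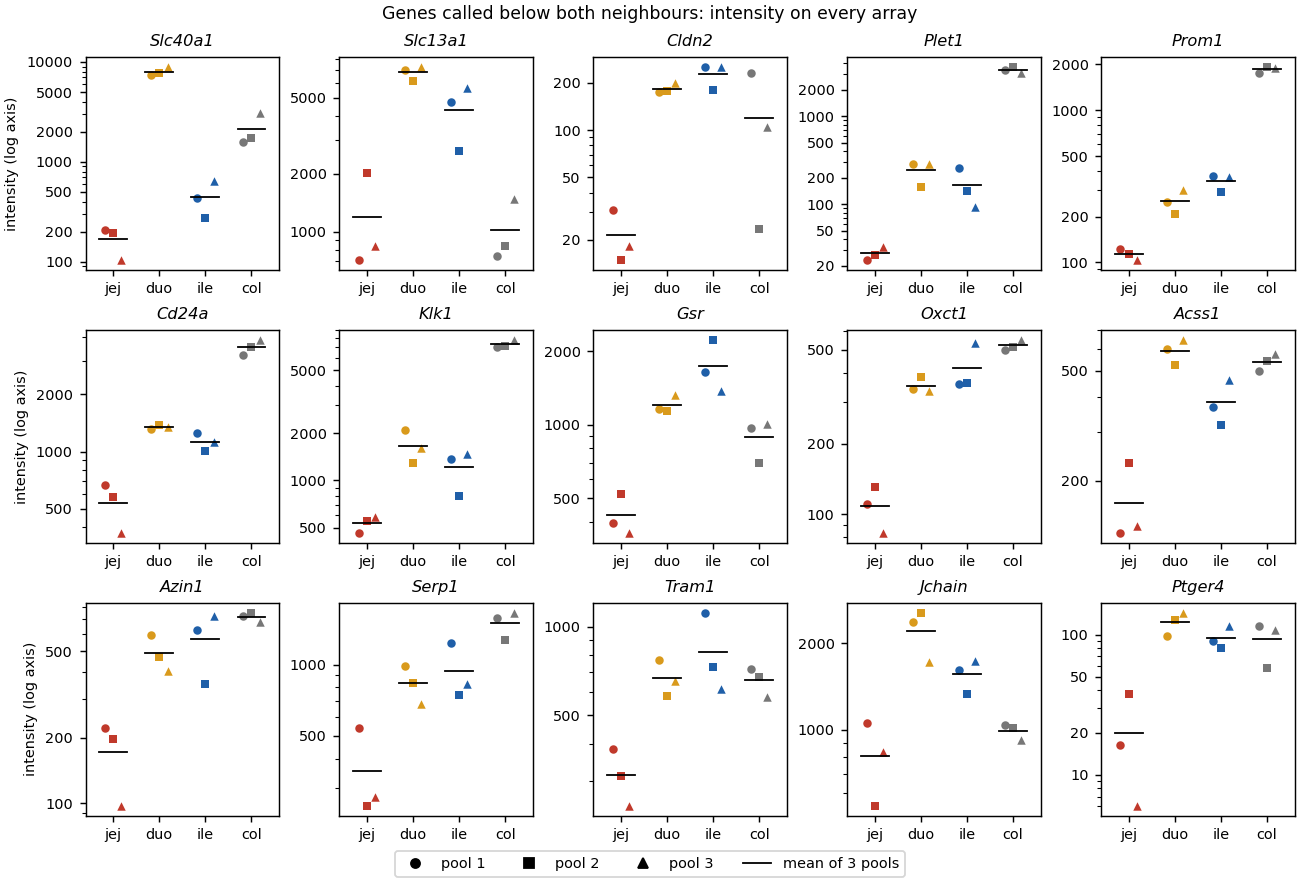
Intensity (log axis, arbitrary units) on every array for 15 genes called below both neighbours, with jejunum (jej), duodenum (duo), ileum (ile) and colon (col) from left to right; symbols are the 3 pools and bars their mean. All jejunum points lie below all duodenum and ileum points, and Plet1, Prom1, Cd24a and Klk1 are brightest in the colon.

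Azin1, an activator of polyamine synthesis, was a trough (-1.56, adjusted p = 0.00398), while ornithine decarboxylase, Odc1, which it spares from degradation, was not called (0.10, adjusted p = 0.842). The remaining troughs by the naming rule were the prostaglandin receptor Ptger4 (-1.87, adjusted p = 0.00559), the nucleolar protein Gnl3l (-2.23, adjusted p = 0.000975), Epm2aip1 (-2.17, adjusted p = 0.000724, with -0.04 and -0.08 on its other probe sets), Fam117b (-1.85, adjusted p = 0.00068), the membrane skeleton protein Add3 (-1.58, adjusted p = 0.000305), the phosphatase subunit Ppp1r15b (-1.31, adjusted p = 0.0027), Shtn1 (-1.25, adjusted p = 0.0101), the protein kinase A subunit Prkar1a (-1.23, adjusted p = 0.0125) and the retinol dehydrogenase Rdh10 (-1.17, adjusted p = 0.0148, with 0.65 on 1 of its 4 probe sets). Ptger4 measured 16.3, 37.8 and 6.0 in the jejunum, 97.5 to 143.7 in the duodenum, and the ileum had 80.6 to 115.4, so its jejunal level lay under the array medians. The same held for the jejunum values of Gnl3l (62.9, 28.3 and 16.6) and Epm2aip1 (42.2, 36 and 30.5).

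Many of the lower calls were one-sided. Among them were genes that 1 neighbour held far above the other segments. Of 18 exocrine pancreas markers 14 were called lower, where 1.7% of all genes were. The list median was -2.82, with -5.50 against the duodenum and -0.05 against the ileum. The carboxypeptidase Cpb1 measured 21.6 to 28.8 in the jejunum, 12482.9 to 13447.1 in the duodenum, and the ileum had 10.7 to 69.9. Of 13 gastric and Brunner's gland markers 5 were called lower, led by the trefoil peptide Tff2, at 2.9 to 31.4 in the jejunum, 15277.7 to 21876.0 in the duodenum, and the ileum had 8.3 to 32.9. The calcium binder S100g (jejunum 17.4 to 54.1, duodenum 2397.7 to 2878.5, ileum 9.6 to 15) and the alkaline phosphatase Akp3 (jejunum 29.0 to 269.4, duodenum 5560.6 to 9273.8, ileum 16.8 to 124.5) had the same form.

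On the other side, the jejunum joined the duodenum against the ileum. Of 9 bile acid genes 3 were called lower (Fabp6, Fgf15 and Slc51b), where 1.7% of all genes were. The list median was -0.08 against the duodenum and -1.71 against the ileum. Of 14 genes of cholesterol synthesis 3 were called lower and none higher, against 1.7% and 1.53% of all genes. The list median was -0.63, with -0.05 against the duodenum and -0.96 against the ileum. Those called were Idi1 (-1.75, adjusted p = 0.0336, but 0.23 on its other probe set), Hmgcs1 (-1.25, adjusted p = 0.0103) and Sqle (-0.95, adjusted p = 0.0137), 3 enzymes of sterol synthesis. Tmigd1, an epithelial adhesion protein, measured 22.2 to 45.6 in the jejunum, 15.8 to 29.5 in the duodenum, and the ileum had 1468.3 to 4727.2.

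Markers of other tissue layers and immune cells gave few calls, but over all genes the share called was also only 3.23%. Lists of this length can hold no call at that share. No gene was called among 15 smooth muscle, 17 neuron and glia, 18 T cell, 18 MHC class II and myeloid, 13 endothelial, 8 mesothelium and fat or 5 tuft cell markers. Their medians ran from -0.34 (smooth muscle) to -0.01 (endothelium), against -0.07 over all genes. Summed smooth muscle markers were at 8717.1 to 11831.6 units in the jejunum, 8569.1 to 10094.4 in the duodenum, and the ileum had 13479.8 to 17339.8. In the secretory cell lists, 9.09% of goblet, 5.26% of enteroendocrine and 12.5% of Paneth and antimicrobial genes were called. These shares rest on 1 or 2 genes each, and no test set them against the 3.23% over all genes. Agr2, a goblet cell protein of the endoplasmic reticulum, was lower (-0.93, adjusted p = 0.0407) among 11 goblet markers, and somatostatin, Sst, was higher (0.70, adjusted p = 0.0125) among 19 enteroendocrine markers. In the Paneth and antimicrobial list the lectin Reg3a was higher (1.83, adjusted p = 0.00158) and Retnlb, a goblet cell peptide, lower (-0.98, adjusted p = 0.00565).

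Of 25 genes of the mitochondrial respiratory chain 4 were called higher and none lower (median 0.21), with contrasts of 0.55 to 0.77. They were Ndufs3, Ndufv1, Uqcrc1 and Uqcrc2, and on another probe set Ndufs3 gave -0.22 and Uqcrc1 gave -0.07. Of 36 regional transcription factors 3 were called higher and 2 lower. The shares over all genes were 1.53% higher and 1.7% lower. Creb3l3, a membrane-bound factor of lipid metabolism, measured 12191.3, 17889.3 and 12565.5 in the jejunum, 9468.1 to 11027.6 in the duodenum, and the ileum had 2419.3 to 4410.8 (1.31, adjusted p = 0.00311). The nuclear receptor Nr1h3 (LXR alpha) was 0.76 higher (adjusted p = 0.0474). Ppara, a nuclear receptor of fatty acid oxidation, was also called (0.76, adjusted p = 0.0437) but gave -0.50 on its other probe set. Pdx1 and the epithelial factor Klf4 were lower, though Klf4 gave 0.04 on another probe set.

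The jejunum pools differed in how far they stood from their neighbours. Over the 46 peak genes the median difference from the neighbour mean was 0.93 in jejunum 1, 1.49 in jejunum 2 and 1.54 in jejunum 3. Over the 35 trough genes it was -1.16, -1.31 and -1.61. Over all probe sets it was 0.02, -0.14 and -0.10. Jejunum 1, the pool with high 18S signal, was the closest to the neighbours in 44 of the 55 peaks and in 29 of the 56 troughs. Without jejunum 1, 1310 probe sets were called in place of 724 and 399 peaks and troughs in place of 111. Without jejunum 2 these counts were 326 and 66, and without jejunum 3 they were 221 and 47.

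**Figure D5:**
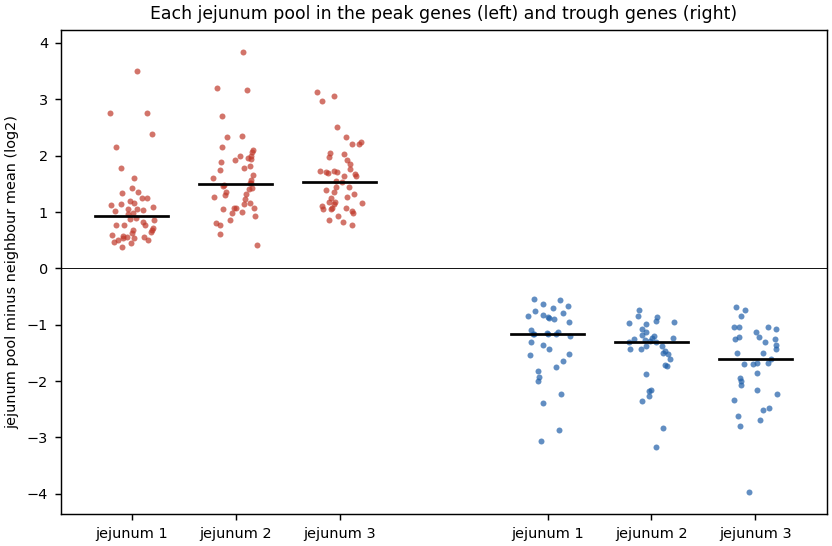
Each of the 3 jejunum pools minus the mean of duodenum and ileum (log2 of intensity plus 16), with 1 point per gene for the 46 peak genes (red, left) and 35 trough genes (blue, right); bars are medians. Jejunum 1 has the smallest median difference in both sets, at 0.93 and -1.16.

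How far the calls hold when the 18S class is taken into account was checked gene by gene. With the class as a block, 346 of the 515 called genes and all 81 peak and trough genes were still called against the midpoint, and 36 of the 81 were still called against both neighbours. Among the 8 samples with high 18S signal, which hold jejunum 1 and ileum 2 as the only pools of their segments, 30 of the 515 genes were called. These pools had also served to choose the genes. The spread there comes from duodenum and colon pools alone. The 5 amino acid carriers had smaller differences there than with all pools, and none was called. With the actin ratio as a covariate, 403 of the 515 were called, and 5 peak genes (Ace, Fbln1, Guca2b, Slc3a2 and Srebf1) and 3 trough genes (Cd24a, Gsr and Oxct1) were called against both neighbours.

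With arrays centred on their medians, all 46 peak genes were still called against the midpoint and 41 against both neighbours. Of the 35 trough genes 27 were still called against the midpoint and 10 against both neighbours, namely Add3, Cldn2, Epm2aip1, Fam117b, Gnl3l, Gsr, Oxct1, Plet1, Ppp1r15b and Slc13a1. With quantile normalisation, 44 of the 46 peak genes were still called against the midpoint and 28 against both neighbours, and 34 and 24 of the 35 trough genes were. With the larger of the 2 side p-values adjusted once over all probe sets, a stricter rule, 7 peak genes (Ace, Dnase1, Fbln1, Guca2b, Slc22a13, Slc36a1 and Slc3a2) and 8 trough genes (Add3, Epm2aip1, Gnl3l, Gsr, Klk1b5, Oxct1, Plet1 and Prom1) passed.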

How the data were processed

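RNA of 12 pools was measured on 3 Affymetrix MG-U74 array sets each (36 arrays). The deposited intensity values are linear and, from the values, were scaled by the authors to a common trimmed mean on every array. The software and version were not given in the sources read. Intensities plus 16 were put on the log2 scale, control probe sets were left out, and all 4 segments of an array set were fitted with limma 3.58.1 (R 4.3.3, eBayes with an intensity trend). Contrasts were adjusted by Benjamini-Hochberg over 36701 probe sets. No filter on dim probe sets was used, and the number of pools limits the precision. On simulated data the contrast recovered 76% of changes of 2 and 28% of changes of 1 (log2), and the peak or trough rule 58% and 10.3%. There only the jejunum was shifted, in 300 probe sets per size, and the other segments were alike, unlike the real data. Probe sets were named from the platform annotation, of which 29131 have 1 symbol, 724 several and 6846 none. The rule named list genes and the largest calls, peaks and troughs. The members and lists were chosen with earlier results of these data known. Alternatives covered the offset, a filter, scaling, the trend, 18S and actin terms, the replicate number, the disputed array and leaving out each pool.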

Additional observations from a re-analysis of the deposited data

How the results depend on the processing

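The 724 calls against the midpoint became 377 without the intensity trend, 384 with small-intestinal arrays only, 43 among the samples with high 18S signal and 221 to 1310 when 1 pool was left out. The 111 peaks and troughs became 169 with a filter on dim probe sets, 73 with quantile normalization, 53 without the trend, 64 with small-intestinal arrays only, 57 with the 18S class as a block, 6 among samples with high 18S signal, 10 with the actin ratio as a covariate, 21 with the larger p adjusted once, 496 by the contrast plus separation of all arrays and 47 to 399 when 1 pool was left out. The 339 calls against the duodenum became 213 without the trend, 208 with the 18S block, 97 among samples with high 18S signal, 139 with the actin covariate and 184 to 854 when 1 pool was left out. The 1020 against the ileum became 664, 615 with small-intestinal arrays only, 67 and 158, and 384 to 1410 when 1 pool was left out. With median centring, there were 60 peaks and 16 troughs (55 and 56 as reported), 115 higher and 128 lower calls against the duodenum (126 and 213) and 551 higher and 202 lower calls against the ileum (429 and 591). The cause of these changes was not tested. Counting duodenum 3 of array set C as jejunum gave 696 calls and 112 peaks and troughs, and leaving it out gave 723 and 117. Pools with the same number did not deviate together (correlations -0.36 to 0.36 on array set A), and with the replicate number as a block the counts were 618, 99, 296 and 882. With the middle probe set of a gene in place of its brightest, the sign was opposite for Aqp1 (-0.0060), Arg2 (-0.45), Bbox1 (-0.32), Cyp27a1 (-0.053), Fabp1 (-0.022), Idi1 (0.23), Klf4 (0.038), Ltc4s (-0.013), Mzb1 (0.46), Ndufs3 (-0.22), Oxct1 (0.47), Ppara (-0.50), Rps3 (0.11), Sparc (1.22), Tmem86b (-0.33) and Uqcrc1 (-0.070). By the lower of the middle probe sets, 11 called named genes had the opposite sign, 16 were weaker and 21 the same. By the upper, these numbers were 6, 12 and 30. The rest of the 121 called named genes were not compared in this way. Single other probe sets had the opposite sign in further genes, among them those given above for Ace, Fbln1, Rdh10 and Tcn2.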
